A study of Mus musculus with 5 samples.

Results

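*Ccl5*, *Ccl3*, *Ccl4* and *Xcl1*, 4 chemokine genes that CD8+ T cells transcribe, were examined among the 21911 protein-coding genes of the mouse annotation. They were chosen by name, with earlier results of these data known. For each one, every peak of acetylated histones that touched the gene body or the 30 kb on either side of it was taken. The peaks come from 5 ChIPseq lists of TM cells, 2 of WT and 3 of TPdh-/- cells, labelled Wildtype and PDH_Mutant. TM cells are CD8+ T cells of OT-I mice that were activated with OVA peptide and then cultured with IL-15. TPdh-/- cells come from a cross of B6.129P2-Pdha1tm1ptl/J with Cd4-Cre mice, so that the E1 alpha subunit of pyruvate dehydrogenase is deleted in T cells from the thymic stage that expresses Cd4. The labels give neither the age nor the sex of the mice, the study used adults of both sexes, and neither source says whether WT mice carried the floxed allele or the Cre, or that each library came from a separate mouse. A peak list does not show the deletion itself. The labels describe the antibody as one against acetyl histones and add acetyl K18, while the study's methods describe it as one against acetyl lysine. The peaks are therefore described as acetylated histones without a residue.

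Chemokines are small secreted proteins that guide the movement of leukocytes through G protein-coupled receptors. *Ccl5* encodes RANTES, a ligand of CCR1 and CCR3 among other receptors, whose mRNA memory CD8+ T cells keep in store and translate quickly after antigen. *Ccl3* and *Ccl4* encode MIP-1 alpha and MIP-1 beta, which are induced by T cell receptor signals, and the product of *Ccl3* binds CCR1. *Xcl1* encodes lymphotactin, which attracts the cross-presenting dendritic cells that carry XCR1. Acetylation of histone tails marks active promoters and enhancers, and the acetyl group is taken from acetyl-CoA, which pyruvate dehydrogenase supplies.

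The windows of the 4 genes held 25 peaks in 8 merged regions, a merged region being the stretch joined from peaks of different lists that overlap by at least 1 bp. WT replicates 1 and 2 had 8 and 5 of these peaks, and TPdh-/- replicates 1, 2 and 3 had 3, 3 and 6. The lists themselves differ in length in the same order, from 15962 peaks in WT replicate 1 to 4920 in TPdh-/- replicate 1, with 8859, 5419 and 9418 in WT replicate 2 and TPdh-/- replicates 2 and 3. The part that list length plays in the counts was not tested beyond the reduced lists given below. Of the 8 regions, 2 had a peak in all 5 libraries, namely a region upstream of *Ccl5* and a region beyond the 3′ end of *Ccl3*. Of the 4 genes 3, *Ccl5*, *Ccl3* and *Ccl4*, thus had a window peak in all 5 libraries, against 26.2% of all protein-coding genes, and the windows of *Ccl3* and *Ccl4* overlap and hold the same peaks. None of the 4 genes had a peak within 3 kb of a start site in all 5 libraries, where 10.9% of coding genes did, and 3 of them had one in at least 1 library, where 43.3% did. A site without a peak is one where none passed the authors' threshold, and the read depth behind each list is unknown.

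**Figure D1:**
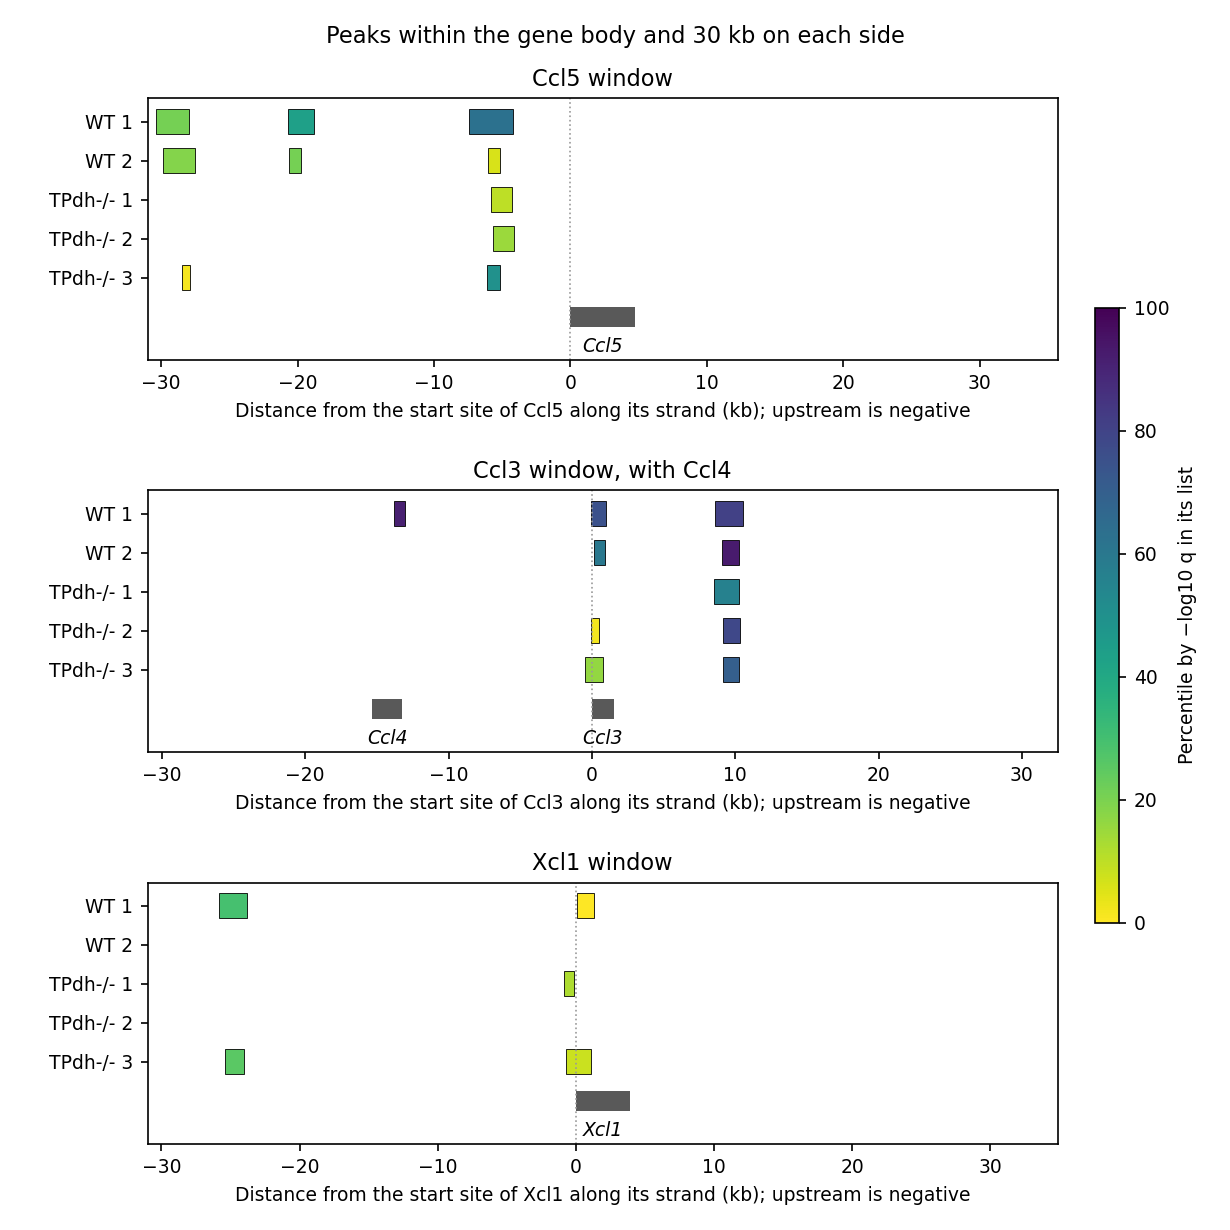
Peaks in the windows of *Ccl5*, of *Ccl3* with *Ccl4*, and of *Xcl1*. The x axis is the distance in kb from the start site along the gene's strand, each row is 1 library, each box is 1 peak drawn to scale, its colour is the percentile by −log10 q within its own list, and grey boxes are genes. All *Ccl5* peaks lie upstream of the gene, and the region near +9 kb of *Ccl3* is present in all 5 rows.

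The sequences of the regions that the results turn on are shown on GRCm38, the build of the lists, from RefSeq. For both regions shared by all libraries the 300 bases about the centre of the stretch covered by every peak are given on the forward strand, at chr11:83535778-83536077 for *Ccl5* and chr11:83639501-83639800 for *Ccl3*. Both stretches lie between genes. Capitals mark matches to 5 short motifs searched on both strands.
Ccl5 upstream region: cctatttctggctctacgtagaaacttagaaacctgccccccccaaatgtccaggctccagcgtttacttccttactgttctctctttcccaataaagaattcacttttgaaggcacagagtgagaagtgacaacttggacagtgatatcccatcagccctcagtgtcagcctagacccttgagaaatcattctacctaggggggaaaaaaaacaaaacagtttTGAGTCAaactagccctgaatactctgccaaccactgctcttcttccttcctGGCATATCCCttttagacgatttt
Region beyond the 3′ end of Ccl3: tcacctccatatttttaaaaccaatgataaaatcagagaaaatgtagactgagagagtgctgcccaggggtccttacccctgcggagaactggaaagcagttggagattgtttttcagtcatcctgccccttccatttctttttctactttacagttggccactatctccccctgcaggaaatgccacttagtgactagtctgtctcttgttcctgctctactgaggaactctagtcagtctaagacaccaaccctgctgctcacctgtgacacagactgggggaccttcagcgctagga
The motifs were GGTGTGA of T-box factors, TGTGGTT of RUNX factors, TGANTCA of AP-1, TTCNNNGAA of STAT factors, and for NF-kB the letters GGG and CC with any 5 bases between. The *Ccl5* region held 1 AP-1 match, which starts at base 225, and 1 NF-kB match on the reverse strand, which starts at base 277. Of 18410 windows of the same length, 1 for each merged region of the 5 lists, 8.17% held the AP-1 letters and 43.4% those of NF-kB. The *Ccl3* region held none of the 5 motifs.

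For the start sites, RefSeq promoter entries matched 2 of the 4 genes, *Ccl3* and *Xcl1*, and the bases before the start of the gene in RefSeq are shown on its own, reverse, strand. For *Ccl3* that start lies slightly upstream of the one in the annotation used for distances. They lie at chr11:83649379-83649628 for *Ccl3* and at chr1:164935528-164935772 for *Xcl1*. The peaks of TPdh-/- replicate 3 cover the whole of each stretch. Those of WT replicate 1 and TPdh-/- replicate 2 cover part of the *Ccl3* stretch. That of TPdh-/- replicate 1 covers part of the *Xcl1* stretch, which no WT peak reaches.
Ccl3 promoter: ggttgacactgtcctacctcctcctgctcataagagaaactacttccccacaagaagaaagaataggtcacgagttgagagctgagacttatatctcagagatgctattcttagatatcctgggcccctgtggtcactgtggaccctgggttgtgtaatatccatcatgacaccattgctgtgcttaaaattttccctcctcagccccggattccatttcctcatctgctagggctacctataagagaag
Xcl1 promoter: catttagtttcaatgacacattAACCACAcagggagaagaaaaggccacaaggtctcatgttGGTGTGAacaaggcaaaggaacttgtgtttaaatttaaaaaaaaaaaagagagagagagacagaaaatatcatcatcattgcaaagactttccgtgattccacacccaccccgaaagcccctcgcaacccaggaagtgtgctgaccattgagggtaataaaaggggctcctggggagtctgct
The *Xcl1* stretch held 1 RUNX match on the opposite strand at base 23 and 1 T-box match at base 63. Among 27025 promoters, the 250 bases before the start held the RUNX letters in 4.46% and the T-box letters in 3.31%. The *Ccl3* stretch held none of the motifs. A match describes letters only and does not show binding.

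*Ccl5* lies on the reverse strand of chromosome 11 from 83525778 to 83530518 (ENSMUSG00000035042.2). Its gene body and start site carried no peak in any library, and its peaks lay in 3 regions upstream of the start site. The nearest region, from 83534667 to 83537952, is the one with a peak in all 5 libraries. The distance from its near edge to the start site was 4179 bp in WT replicate 1 and 5153 bp in WT replicate 2. In TPdh-/- replicates 1, 2 and 3 it was 4252, 4149 and 5136 bp. *Ccl5* was the nearest annotated gene in each case.

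The extent of this peak fell into 2 forms that did not follow genotype. In TPdh-/- replicates 1 and 2 it began within 103 bp of the same place and was 1581 and 1517 bp wide. In WT replicate 2 and TPdh-/- replicate 3 its gene-side edge lay 1004 and 987 bp further from the gene, and it was 888 and 973 bp wide. In WT replicate 1 the peak covered both stretches and reached further upstream, with a width of 3256 bp, which is at the 99.0 percentile of widths in that list. All 5 peaks shared a core of 513 bp.

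The peak was low in every library, while its width was above the list median in 3 libraries and below it in WT replicate 2 and TPdh-/- replicate 3. Its fold, the enrichment over the local background that the peak caller estimated, was 1.72 and 1.61 in WT, where the lists have medians of 2.40 and 2.54. It was 1.86, 1.80 and 1.85 in TPdh-/- replicates 1, 2 and 3, where the medians are 2.65, 2.58 and 2.48. In none of the 5 lists did its fold exceed the 3.26 percentile. Folds are relative to the background of each library and were not tested between libraries.

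By −log10 q, the authors' measure of confidence in a peak, its place differed more between libraries. It ranked 5937 of 15962 in WT replicate 1 and 8306 of 8859 in WT replicate 2, at the 62.8 and 6.24 percentile, the percentile being the share of the list's peaks with a lower value. In TPdh-/- replicates 1, 2 and 3 it ranked 4430 of 4920, 4606 of 5419 and 4730 of 9418, at the 9.94, 15.0 and 49.8 percentile. The groups overlapped, WT replicate 2 being the lowest of all and WT replicate 1 the highest. WT had a mean percentile of 34.5 ± 40.0 (SD, n = 2), and TPdh-/- one of 24.9 ± 21.7 (SD, n = 3) (exact permutation test, two-sided, p = 0.8). The smallest p that 2 libraries against 3 allow is 0.2, so that no test of the groups here could pass 0.05, and p-values measure only the spread between these libraries, which may be technical. Without WT replicate 1 the difference of 9.62 percentage points between the means turned to -18.7.

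With each list reduced to its 4920 strongest peaks, the upstream peak was kept in all 3 TPdh-/- lists and dropped out of both WT lists. TPdh-/- replicate 1 holds 4920 peaks and was not cut, so its peak was bound to stay. The list of 5419 peaks of TPdh-/- replicate 2 was cut little, and that of 15962 of WT replicate 1 most. At −log10 q values of 2 or more, the upstream peak was kept in WT replicate 1 and TPdh-/- replicate 3, the longest list of each group.

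**Figure D2:**
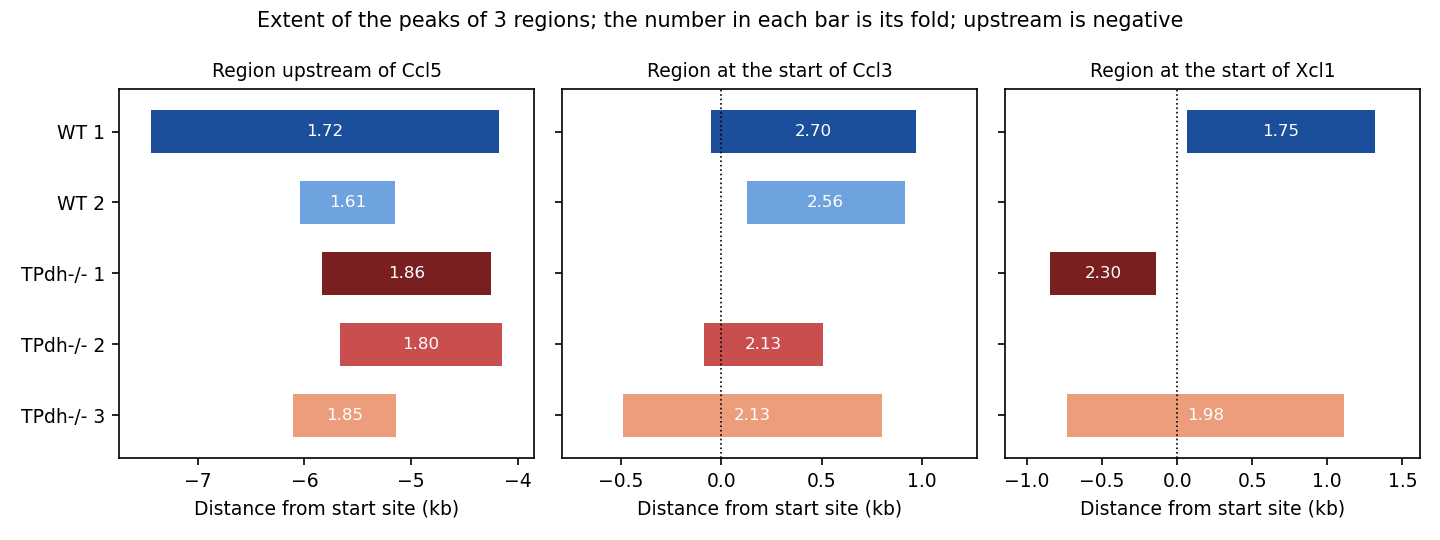
Extent of the peaks upstream of *Ccl5* and at the starts of *Ccl3* and *Xcl1*. The x axes give the distance in kb from the start site (dotted line where in range), each row is 1 library and the number in a bar is the fold. The *Ccl5* peaks of WT replicate 2 and TPdh-/- replicate 3 start about 1 kb further from the gene than those of TPdh-/- replicates 1 and 2, and no peak was called at the start of *Ccl3* in TPdh-/- replicate 1.

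The middle region, from 83549326 to 83551241, had a peak in both WT libraries and in no TPdh-/- library, a pattern shared by 1089 of the 18410 merged regions, or 5.92%. It lay 18808 bp upstream of the start site in WT replicate 1, where the peak was 1916 bp wide with a fold of 1.91 and ranked 8992. In WT replicate 2 it lay 19784 bp upstream, was 830 bp wide, had a fold of 1.96 and ranked 7001. These ranks correspond to the 43.7 and 21.0 percentile of their lists. *Ccl5* was still the nearest gene.

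The far region, from 83558065 to 83560897, had peaks of 2444 and 2300 bp in WT replicates 1 and 2, and a peak of 593 bp in TPdh-/- replicate 3. Its peaks lay between 27547 and 27936 bp from the start of *Ccl5*, and between 16245 and 18161 bp from the start of *Ccl9*, which is thus the nearer gene. Folds were 1.75 and 1.88 in WT and 1.88 in TPdh-/- replicate 3. Both WT peaks were at the 20.9 and 18.6 percentile by −log10 q, and the TPdh-/- replicate 3 peak at the 1.25 percentile. The peak of WT replicate 1 runs across the edge of the window, and the next peak outside it, of that library alone, lay 38252 bp from *Ccl5* at rank 14688. On the other side, the first peaks outside lay at *Taf15*, over 50 kb from the gene body, in 4 libraries.

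The *Ccl5* window was covered by peaks over 7237 and 4018 bp in WT replicates 1 and 2, and over 1581, 1517 and 1566 bp in TPdh-/- replicates 1, 2 and 3. Both WT libraries lay above all 3 TPdh-/- libraries, which differed little from each other. The WT mean was 5628 ± 2276 bp (SD, n = 2) and that of TPdh-/- 1555 ± 33.5 bp (SD, n = 3), a difference of 4073 bp (exact permutation test, two-sided, p = 0.2, the smallest possible; adjusted p = 0.710 by Benjamini-Hochberg over 14587 coding genes with a window peak in any library). Of those genes 28.1% were likewise higher in both WT libraries, and the median difference over them was 845 bp, so the order at *Ccl5* is a common one in these lists. Of the 14587 genes, 0 passed 0.05 with or without adjustment. At 10 kb on each side, which leaves only the region near the gene, the difference was 715 bp and the groups overlapped. At −log10 q values of 2 or more the order was lost, with 7237 and 0 bp covered in WT replicates 1 and 2 and 0, 0 and 973 bp in the TPdh-/- replicates. Without WT replicate 1 the difference was 2463 bp, and with lists of equal length it turned to -1357 bp. Dividing covered length by the Mb that each list covers kept the order. WT replicate 1 then came to 358 and WT replicate 2 to 406, while the highest TPdh-/- value, that of replicate 1, was 326. The order also held with peaks of at least 1000 bp, with nearest-gene assignment and with 50 kb on each side.

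**Figure D3:**
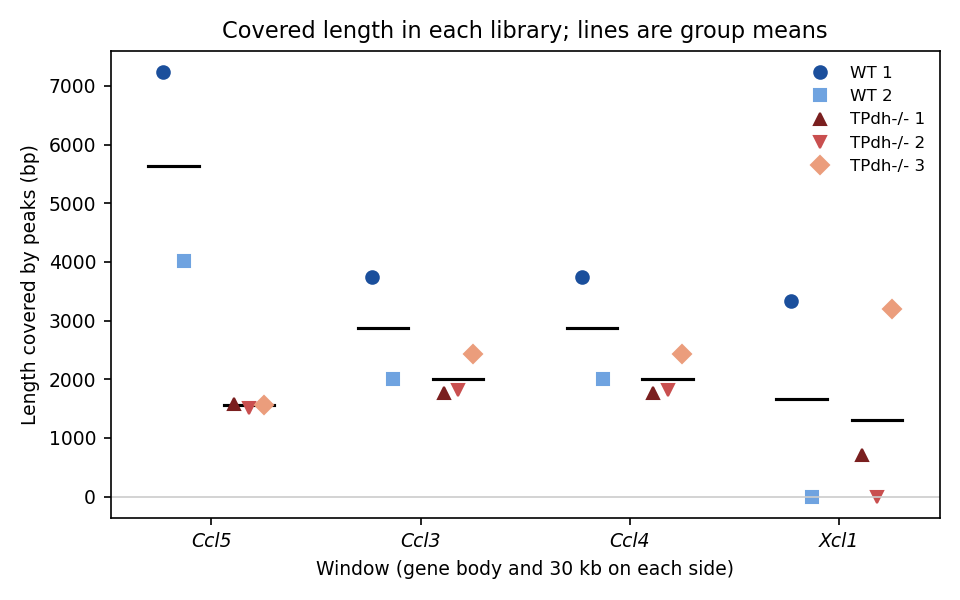
Length covered by peaks in the window of each gene. The y axis is in bp, each point is 1 library and the lines are group means. In the *Ccl5* window both WT libraries lie above the 3 TPdh-/- libraries, which sit between 1517 and 1581 bp, and in the other windows the groups overlap.

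*Ccl3* lies on the reverse strand of chromosome 11 from 83647844 to 83649355 (ENSMUSG00000000982.5), and *Ccl4* on the forward strand from 83662584 to 83664683 (ENSMUSG00000018930.3). The genes point away from each other, and their windows hold the same 3 regions, so that values over the window are the same for both genes. The region beyond the 3′ end of *Ccl3*, from 83638789 to 83640863, had a peak above the median by −log10 q in all 5 lists, the only one of the 8 regions that did. It lay between 8492 and 9146 bp downstream of the *Ccl3* start site and between 21721 and 22375 bp upstream of that of *Ccl4*. The nearest annotated start site, at 4758 to 5412 bp, is that of *Rpl9-ps1*, listed as protein-coding but named as a pseudogene of a ribosomal protein.

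This peak was at the 80.5 and 92.8 percentile by −log10 q in WT replicates 1 and 2, with ranks of 3105 and 638. In TPdh-/- replicates 1, 2 and 3 it was at the 56.5, 78.4 and 70.2 percentile, with ranks of 2142, 1171 and 2811. Both WT values lay above the TPdh-/- values, the nearest by little. The share of all regions in this order was not counted. By the strongest window peak, another measure, 26.4% of 14587 genes were in this order. Folds were 2.05 and 2.47 in WT and 2.23, 2.31 and 2.13 in TPdh-/-, and overlapped. WT replicates 1 and 2 had widths of 1963 and 1215 bp, the TPdh-/- replicates of 1772, 1217 and 1139 bp, and all 5 peaks shared 1118 bp. It was kept in all libraries when the lists were cut to equal length or to −log10 q values of 2 or more. At values of 5 or more it was kept in both WT lists and in none of the TPdh-/- lists. Its −log10 q was 2.84, 4.57 and 4.92 in TPdh-/- replicates 1, 2 and 3. A cutoff of 5 exceeds the median −log10 q of every list. That median is 2.59, 2.81 and 3.41 for TPdh-/- replicates 1, 2 and 3, 3.99 for WT replicate 1 and 3.16 for WT replicate 2. The share of all regions left in WT alone by this cutoff was not counted.

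At the start of *Ccl3* a peak was called in both WT libraries and in TPdh-/- replicates 2 and 3. This pattern held for 983 of the 18410 merged regions, or 5.34%. The peak covered the start site in WT replicate 1 and in TPdh-/- replicates 2 and 3. In WT replicate 2 it began 127 bp into the gene. The peaks were 1024 and 788 bp wide in WT and touched 2 exons each. They were 596 and 1292 bp wide in TPdh-/- replicates 2 and 3, where they touched 1 and 2 exons. Folds were 2.70 and 2.56 in WT and 2.13 in both TPdh-/- libraries. The −log10 q was 6.69 and 3.76 in WT, at the 75.0 and 60.0 percentile. It was 1.20 and 1.80 in TPdh-/-, at the 1.77 and 16.1 percentile, near the lower end of those lists, which begin at 1.02 and 1.01. This region thus lay in the upper part of both WT lists and near the bottom, or below the threshold, in TPdh-/-. At −log10 q values of 2 or more it was present in WT only. How many of all regions separate in this way was not counted. By the strongest window peak, both WT libraries were above all TPdh-/- libraries at 26.4% of 14587 genes.

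At the start of *Ccl4* a peak of 761 bp, from 83662382 to 83663142, was called in WT replicate 1 alone. A peak in that library alone was the pattern of 5691 of the 18410 merged regions, or 30.9%. The *Ccl4* peak had a fold of 2.65 and a −log10 q of 10.5, the highest of the 25 window peaks. It was at rank 1384 and the 91.3 percentile. Peaks this strong mostly recurred in the other lists. Of the 1384 peaks of WT replicate 1 that ranked at least as high, 1022 overlapped a peak in each of the other 4 lists, 80 had none in WT replicate 2, and 14, or 1.01%, had none in any other list. The *Ccl4* peak therefore rests on 1 library, and is absent from the second WT library as from TPdh-/-.

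Over the shared window, *Ccl3* and *Ccl4* had 3748 and 2003 bp covered in the WT libraries, against 1772, 1813 and 2431 bp in those of TPdh-/-. The groups overlapped, with means of 2876 ± 1234 bp (SD, n = 2) and 2005 ± 369 bp (SD, n = 3) and a difference of 870 bp (exact permutation test, two-sided, p = 0.4; adjusted p = 0.718 over all genes by Benjamini-Hochberg). Without WT replicate 1 the difference was -2.33 bp, and per Mb of all peaks of a list it was -112 bp. Scaled in this way, both WT libraries, at 185 and 202 bp, lay below TPdh-/- replicates 1, 2 and 3, at 365, 328 and 224 bp. The divisor is the length a list covers, 20.2 and 9.89 Mb in WT and 4.85, 5.52 and 10.9 Mb in TPdh-/-. A region of like width therefore comes out lower in a list that covers more. The share of all genes in this order after scaling was not counted. The strongest peak of the window was at the 91.3 and 92.8 percentile in WT and at 56.5, 78.4 and 70.2 in TPdh-/-. These groups did not overlap, with means of 92.1 ± 1.04 (SD, n = 2) and 68.3 ± 11.1 (SD, n = 3) and a difference of 23.7 percentage points (exact permutation test, two-sided, p = 0.2, the smallest possible; adjusted p = 0.746 over all genes by Benjamini-Hochberg). In WT replicate 1 the strongest peak was the one at the *Ccl4* start. In every other library it was that of the region beyond the 3′ end of *Ccl3*, where WT replicate 1 was at 80.5. The SD of the WT values thus mixes different regions. By the strongest window peak, both WT libraries were above all TPdh-/- libraries at 26.4% of the 14587 genes, where the median difference was 17.7 points. For *Ccl5*, the same measure overlapped between groups, at 62.8 and 21.0 in WT and 9.94, 15.0 and 49.8 in TPdh-/- (exact permutation test, two-sided, p = 0.4).

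**Figure D4:**
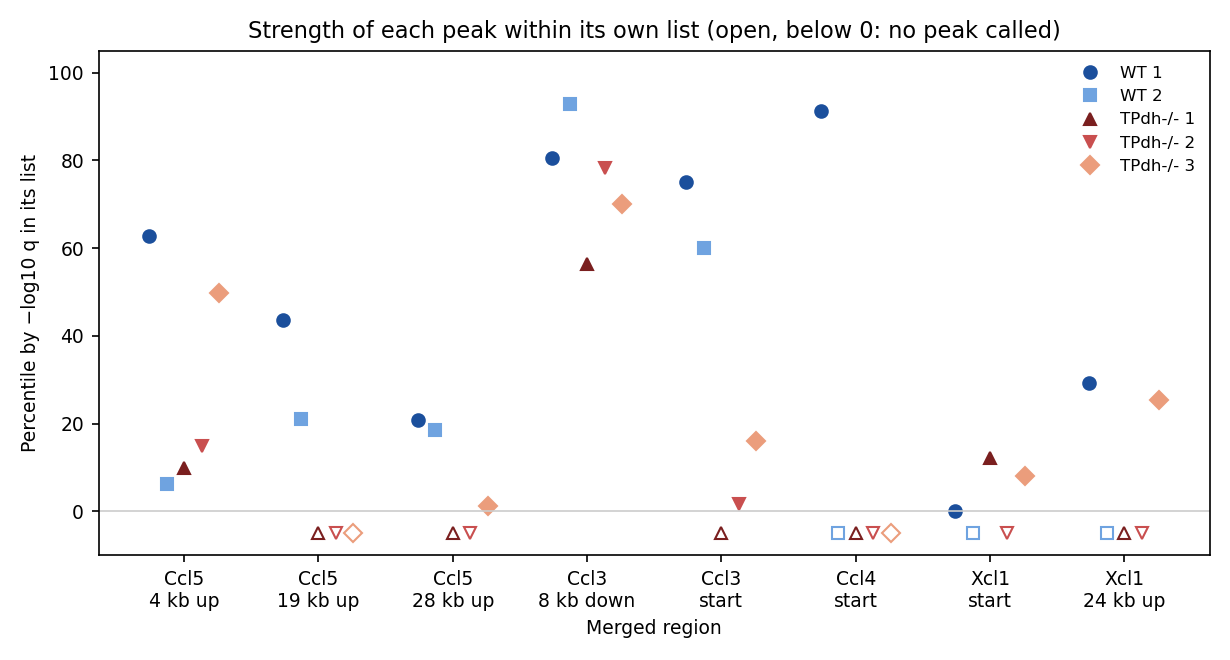
Percentile by −log10 q of each peak within its own list, for the 8 merged regions in order of gene and position. Each symbol is 1 library, and open symbols below 0 mark libraries with no peak called. The region 8 kb downstream of *Ccl3* lies above 56 in all 5 libraries, and the *Ccl4* start has a symbol above 0 for WT replicate 1 only.

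*Xcl1* lies on the reverse strand of chromosome 1 from 164931644 to 164935527 (ENSMUSG00000026573.7), inside the antisense transcript *Gm20743*, and ChIPseq does not tell the strands apart. Peaks at its start were weak and lay in different places. WT replicate 1 had a peak of 1251 bp that began 66 bp into the gene, with a fold of 1.75. Its rank of 15952 of 15962 put it among the weakest peaks of the list. TPdh-/- replicate 1 had a peak of 703 bp that ended 142 bp upstream of the start site, with a fold of 2.30 at the 12.2 percentile. TPdh-/- replicate 3 had a peak of 1846 bp across the start site, with a fold of 1.98 at the 8.14 percentile. The peaks of WT replicate 1 and TPdh-/- replicate 1 did not overlap each other and were joined by that of TPdh-/- replicate 3. WT replicate 2 and TPdh-/- replicate 2 had no peak anywhere in the window.

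A further region upstream of *Xcl1*, from 164959304 to 164961378, had peaks in WT replicate 1 and TPdh-/- replicate 3. They lay 23777 and 24009 bp from the start site, were 2075 and 1356 bp wide, and had folds of 1.63 and 1.76 at the 29.3 and 25.5 percentile by −log10 q. *Xcl1* was the nearest protein-coding gene, but the lincRNA *1700029M03Rik* was nearer, its start lying inside the first peak and 30 bp from the second. This pair of libraries was alone in 1384 of the 18410 merged regions, or 7.52%. The *Xcl1* window was covered over 3326 and 0 bp in the WT libraries, against 703, 0 and 3202 bp in those of TPdh-/-, and the groups overlapped fully (difference in means 361 bp, exact permutation test, two-sided, p = 1).

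Fold differed between the windows and width did not follow it. All 10 peaks of the *Ccl5* window had a fold below the 10 percentile of their lists, between 1.61 and 1.96, while 6 of the 10 were wider than the median peak. In the *Xcl1* window 4 of 5 peaks had such a low fold and 4 of 5 were wider than the median. In the windows of *Ccl3* and *Ccl4* no peak had a fold below the 10 percentile, the folds ran from 2.05 to 2.70, and 6 of 10 peaks were wider than the median, as many as in the *Ccl5* window. In all, 22 of the 25 peaks had a fold below the median of their list. Over all peaks of a list, width and fold were only weakly related, with Spearman's rho between -0.273 and -0.182 across peaks, which are not independent replicates.

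**Figure D5:**
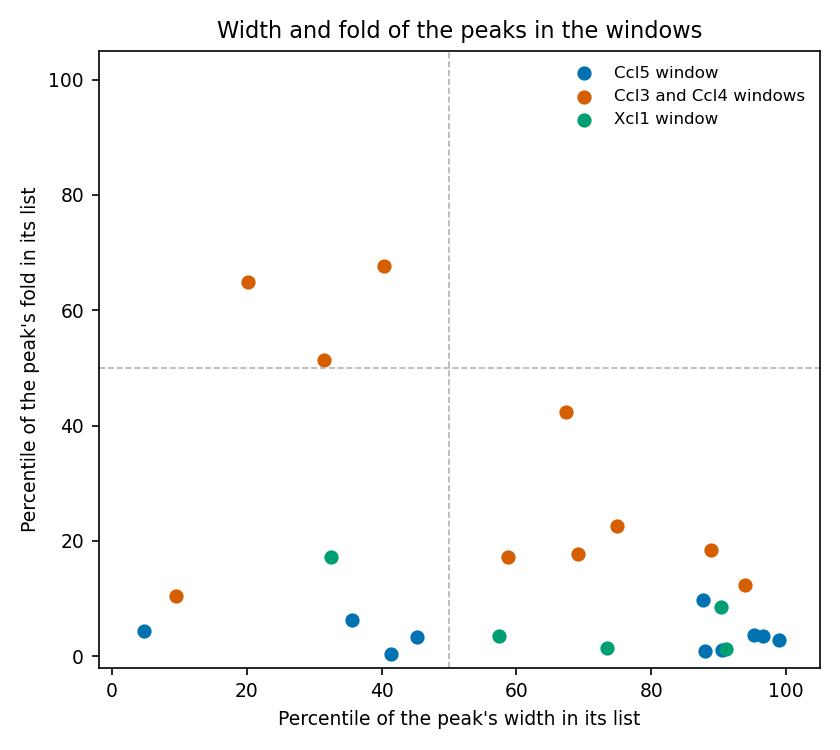
Width and fold of the 25 window peaks. Each point is 1 peak, the axes give its percentile by width and by fold within its own list, and dashed lines mark the medians. All 10 *Ccl5* points lie below the 10 percentile of fold, and the 3 points above the median of fold belong to the *Ccl3* and *Ccl4* windows.

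Other chemokine genes carried few peaks at their starts. Of 32 listed, 31 were found in the annotation, and 29 of these had no peak within 3 kb of a start site in any library. *Ccl25*, a chemokine best known from thymus and gut, had one in all 5 libraries, and *Ccl27a* had one in WT replicate 1. Within the windows of 30 kb, 11 of the 31 had a peak in at least 1 library, where 66.6% of all coding genes had one, among them the *Ccl5* neighbours *Ccl9* and *Ccl6*, and 4 had one in all 5, where 26.2% of coding genes did. By library, 2 of the 31 had a peak at the start in WT replicate 1 and 1 in each other library, where 42.1% of all coding genes had one in WT replicate 1, 24.8% in WT replicate 2, and 15.3%, 16.5% and 27.9% in TPdh-/- replicates 1, 2 and 3. The receptor genes *Ccr1*, *Ccr3* and *Xcr1* had no peak within 3 kb of a start site in any library, though the window of *Xcr1* held a peak in all 5 libraries.

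*Ccl3* and *Ccl4* are also strong genes of myeloid cells, so marker genes were checked at the start sites. Of 11 genes of CD8+ T cells, 10 had a peak within 3 kb of a start site in at least 1 library, where 43.3% of coding genes did. *Cd8b1* and *Lck* had one in all 5, and *Tbx21* in none. By library they were 10 and 6 in WT and 2, 4 and 6 in TPdh-/-. Of all coding genes, 42.1% and 24.8% had one in WT replicates 1 and 2. In TPdh-/- replicates 1, 2 and 3 the shares were 15.3%, 16.5% and 27.9%. Of 6 myeloid genes none had one in any library. Within 30 kb, however, the windows of *Cd14* and *Itgam* held a peak in 5 and 4 libraries, and the other 4 windows held none. The windows of all 11 genes of CD8+ T cells held one in at least 1 library, where 66.6% of coding genes did. Of the 2 genes of CD4+ T cells, *Cd4* had a peak at the start site in both WT libraries and *Zbtb7b* in WT replicate 1. In bulk chromatin, fewer acetylated cells and less acetylation per cell cannot be told apart.

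By the strongest peak of the window, the coding genes most like *Ccl5* over the 5 libraries were *Med21*, a Mediator subunit, *Ppm1k*, a mitochondrial phosphatase, and *Ryr1*, a calcium release channel. They were taken from 5730 genes with a peak in all 5 windows that lie elsewhere in the genome, by the Euclidean distance between percentiles, which was 10.5, 11.7 and 14.5 points. For *Med21* the percentiles were 69.9 and 14.5 in WT and 5.87, 14.9 and 51.1 in TPdh-/-.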

How the data were processed

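Acetylated histones were immunoprecipitated from TM cells, and the peak lists used are those of 2 WT and 3 TPdh-/- samples. The study describes more libraries per group, and the others were not analysed here. The authors aligned reads to GRCm38/mm10 with BWA-mem 0.7.17, kept uniquely mapping reads outside blacklisted regions with Samtools 1.15.1, and called broad peaks per library with MACS2 2.2.6. No input control is named. The deposited lists give for each peak a fold enrichment (a ratio), and the authors' −log10 p and −log10 q. The deposited score, which restates the −log10 q, was not used. No read counts are in the lists, so depth is unknown, and the authors' DiffBind comparison was not repeated.

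The members and gene lists were chosen with earlier results of these data known. Peaks within 30 kb of the gene bodies (GENCODE vM21, GRCm38) were placed, ranked by −log10 q and merged at an overlap of at least 1 bp with Python 3.11.15, numpy 2.4.6 and pandas 2.3.3. Distances run from the near edge of a peak to the start site. Covered length and the percentile of the strongest peak (0 where none) were compared for all protein-coding genes by exact permutation tests with Benjamini-Hochberg adjustment, and the code was tested on simulated lists. Named were the 4 genes, the gene nearest to each peak, up to 6 genes a list with start-site peaks in most libraries, and the 3 genes most like Ccl5. Other names were added after their values were seen. Sequences are from RefSeq, and promoter entries were matched by symbol. Alternatives were stricter −log10 q, equal list lengths, a minimum width, nearest-gene assignment, other windows, scaling by list, ranking by fold, a wider overlap, the replicate block and leaving out each library. Some of the listed genes are not reported here.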

Additional observations from a re-analysis of the deposited data

How the results depend on the processing

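Of 124 alternative values, 102 kept the direction of the difference (WT minus TPdh-/-), 20 changed sign and 2 fell to 0. These values are not independent. *Ccl3* and *Ccl4* share their window peaks, so most of their values are the same, and the region upstream of *Ccl5* lies in the *Ccl5* window. No test could pass 0.05 under any of the alternatives. The cause of the changes was not tested unless the alternative's construction gives it. With lists of equal length, the difference in covered length was -1357 bp for *Ccl5* and -234 bp for *Xcl1*, the strongest percentile -6.73 and -4.06, and the percentile of the region upstream of *Ccl5* -6.73, since the WT peaks concerned rank below 4920. Per Mb of the list, covered length was -112 bp for *Ccl3* and *Ccl4* and -64.3 bp for *Xcl1*. With 10 kb on each side, *Xcl1* gave -224 bp and -6.74 points. Ranking by fold gave -6.85 for *Xcl1* and -0.196 for the region upstream of *Ccl5*. With a −log10 q of at least 5, no *Xcl1* peak was left and both differences were 0.

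Leaving out each library in turn, covered length differed by 2463 to 5682 bp for *Ccl5*, by -2.33 to 1743 bp for *Ccl3* and *Ccl4* and by -1302 to 2024 bp for *Xcl1*. The strongest percentile differed by -3.93 to 37.9 points for *Ccl5*, 17.8 to 28.8 for *Ccl3* and *Ccl4* and -12.6 to 16.8 for *Xcl1*, and the region upstream of *Ccl5* by -18.7 to 37.9. The lowest values of all but *Ccl3* and *Ccl4* by percentile came without WT replicate 1. *Xcl1* was also below 0 without TPdh-/- replicate 2, at -290 bp and -4.17 points.

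The replicate numbers are not stated to pair samples, and same-numbered libraries did not deviate together, with a correlation over genes of -0.0420 for replicates 1 and 0.0206 for replicates 2. Under the replicate block, where TPdh-/- replicate 3 has no partner and drops out, no difference changed sign, and covered length differed by 4079 bp for *Ccl5*, 1083 bp for *Ccl3* and *Ccl4* and 1312 bp for *Xcl1*.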
